A study of Mus musculus with 6 samples.

Results

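The AP-1 transcription factor genes were measured in keratinocytes descended from the hair bulge (HB), with intact or deleted *Itga3*, the gene of integrin α3, after a short course of skin carcinogen and tumor promoter. The 8 genes *Fos*, *Fosb*, *Fosl1*, *Fosl2*, *Jun*, *Junb*, *Jund* and *Atf3* were taken by symbol from the count table, and they are 8 of its 22295 genes. All 8 were tested, and the lowest count of any of them in any library was 484 (*Fosl1*).

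RNA had been sequenced from 3 K19 *Itga3* WT mice, of the genotype K19(Cre-ERT); mTmG, and from 3 K19 *Itga3* KO mice, which carried Itga3 fl/fl in addition. Both lines were on FVB (FVB/N in the methods of the study), and there was 1 library per mouse, so that p-values measure the spread between mice. According to the sample descriptions all mice had received tamoxifen at 10 mg/ml over 4 days from the age of 6 weeks, 1 dose of 30 μg of the mutagen DMBA at 7 weeks, and then repeated 12.34 μg doses of the phorbol ester TPA. The methods of the study give a lower tamoxifen concentration, a slightly earlier start and additional topical tamoxifen. The keratin 19 promoter restricts the tamoxifen-dependent Cre to the cells that use it, and the mTmG reporter turns recombined cells and their progeny green, so the sorted GFP-positive cells are those in which the reporter was recombined. No mouse without tamoxifen, DMBA and TPA was analysed here, and the time between the last TPA application and the sort is not given in the sources used here. The effects of TPA, of tissue dissociation and of sorting on the levels below therefore cannot be told apart.

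AP-1 is a family of dimers that join through a leucine zipper and bind DNA through the basic region beside it. Fos proteins need a Jun or another partner, whereas Jun proteins can also pair among themselves, and both kinds bind the TPA response element, which was named for the phorbol ester used here. *Fos*, *Fosb*, *Jun*, *Junb* and *Atf3* are immediate early genes, whose short-lived transcripts appear within minutes of growth factor, phorbol ester or stress signals, and in skin AP-1 is known for its part in tumor promotion and in the control of keratinocyte differentiation genes.

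Promoter sequence is shown for the 5 members that held one of the motifs searched. These are also the 5 members with the highest mean level per exon length, but a link between motif and level was not tested. The share of all promoters with any of these motifs was not computed, and CCAAT alone was in 33.8% of them. Each run is the 150 bases before the gene's start in the RefSeq annotation of GRCm38.p6, 5′ to 3′ on the strand of the gene. Capitals mark TGACG (a part of the cAMP response element, CRE) or its reverse complement CGTCA, the CCAAT box, and the TATA box TATAAA.
Fos (chr12:85473740-85473889, plus strand): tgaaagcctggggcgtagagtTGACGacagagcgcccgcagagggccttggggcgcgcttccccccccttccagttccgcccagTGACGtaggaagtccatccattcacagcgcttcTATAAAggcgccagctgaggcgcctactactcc
Fosb (chr7:19310046-19310195, minus strand): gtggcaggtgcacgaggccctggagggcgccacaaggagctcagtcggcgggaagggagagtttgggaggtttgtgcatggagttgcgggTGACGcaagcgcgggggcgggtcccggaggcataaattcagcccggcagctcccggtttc
Jun (chr4:95052223-95052372, minus strand): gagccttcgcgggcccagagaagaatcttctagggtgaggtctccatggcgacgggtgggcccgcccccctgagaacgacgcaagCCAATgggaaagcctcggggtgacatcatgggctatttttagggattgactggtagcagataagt
Junb (chr8:84978749-84978898, minus strand): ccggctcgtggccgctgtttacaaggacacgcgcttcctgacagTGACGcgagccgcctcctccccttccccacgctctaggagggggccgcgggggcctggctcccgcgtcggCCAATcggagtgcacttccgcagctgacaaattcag
Atf3 (chr1:191183334-191183483, minus strand): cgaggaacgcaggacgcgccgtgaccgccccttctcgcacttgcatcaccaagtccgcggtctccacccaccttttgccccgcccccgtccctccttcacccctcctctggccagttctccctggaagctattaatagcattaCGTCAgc
The search covered both strands of the 250 bases before the start, in the 7 members that have an entry (all but *Fosl1*) and in 32851 promoters overall. TGACG was in 4 of the 7 (*Fos*, *Fosb*, *Junb* and *Atf3*) and in 17.8% of all promoters, and *Fos* held it at 2 places, 129 to 125 and 66 to 62 bases before its start. CCAAT was in *Jun* and *Junb* and in 33.8% of all promoters, and TATAAA was in *Fos* alone, 33 to 28 bases before its start, and in 12.4% of all. The full CRE TGACGTCA (1.55% of all promoters), the TPA response element TGANTCA (6.75%) and the CArG box, the site of serum response factor (1.47%), were in 0 of the 7 windows. TGACG also lies within TGACGTCA, and an absent motif says only that these letters are not in the window.

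The libraries held 20578309 to 23670507 counts on genes, and the normalization factors (TMM) lay between 0.981 and 1.03. Levels are given as CPM (counts scaled to a common library total) after TMM scaling, and 3 values for a genotype are given in the order of its libraries a, b and c. These letters follow the columns of the table, which give the genotype but no sample number of the labels. The targeted gene *Itga3* stood at 252 to 371 CPM in WT and at 124 to 134 CPM in KO libraries, each KO library below each WT library (log2 fold change −1.20 with a standard error, SE, of 0.13; the adjusted p from edgeR was 0.00283, and 0.13 without WT c or 0.0934 without KO a). Summed keratinocyte markers (Krt5, Krt14, Krt15, Itga6 and Trp63) reached 30900 to 47700 CPM in WT and 36800 to 42500 CPM in KO. Bulge markers (Cd34, Lgr5, Krt15 and Lhx2) reached 11400 to 17400 and 10700 to 14000 CPM, of which Cd34 fell by 0.72 on the log2 scale (adjusted p = 0.0462 from edgeR, and 0.0685 to 0.379 without WT b, WT c, KO a or KO c). The 5 immune markers tested summed to 5.63 to 10.4 CPM in WT and 5.99 to 9.19 CPM in KO, with Lyz2 at 0 in 5 of 6 libraries. Melanocyte markers summed to at most 11.6 CPM and endothelial markers to at most 3.44 CPM in any library. The 6 fibroblast markers summed to 116 to 178 CPM in WT and 48.1 to 80.3 CPM in KO, of which Col1a1 and Col1a2 made up the larger share, while Col3a1 was at 0 in all 3 WT libraries. Dcn went the other way, with 0.573 to 1.69 CPM in WT and 1.55 to 5.44 CPM in KO, and Lum had at most 3 counts in any library. The part of these cells in the AP-1 levels was not tested.

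Most AP-1 genes had abundant transcripts in these cells. By CPM, *Fos* ranked 10 of the 21681 tested genes, *Fosb* 23, *Jun* 27, *Atf3* 96, *Junb* 161, *Jund* 282, *Fosl2* 459 and *Fosl1* 4042. Because a long transcript gives more reads, the order of the genes was set on CPM per kilobase of merged exon sequence. On that scale the mean over 6 libraries was 1365 for *Fos*, 546.5 for *Jun*, 404.1 for *Atf3*, 301.8 for *Fosb*, 268.5 for *Junb*, 256.2 for *Jund*, 33.2 for *Fosl2* and 30.13 for *Fosl1*. Among the 21434 genes with a length, *Fos* then ranked 12, *Jun* 41, *Atf3* 57, *Fosb* 98, *Junb* 113 and *Jund* 117, whereas *Fosl2* ranked 1437 and *Fosl1* 1634. Neighbours in this order were set apart in 2 of 7 places: every library had more *Fos* than the highest library had *Jun*, and more *Jund* than the highest library had *Fosl2*. The ranges of the other 5 pairs of neighbours overlapped over the libraries. Of these, *Atf3* was nevertheless above *Fosb* in each of the 6 libraries, while the order of *Jun* and *Atf3*, *Fosb* and *Junb*, *Junb* and *Jund*, and *Fosl2* and *Fosl1* changed between libraries. Dividing by coding length instead put *Fosb* second and set apart other neighbours in their place (*Atf3* from *Junb*, and *Fosl2* from *Fosl1*), since *Fosb* has 6243 exon bases of which 1014 are coding. With exons restricted to the gene bounds of the count table, *Junb* came before *Fosb* and the same 2 places were set apart. *Jund* has 1668 exon bases in the annotation used for lengths, fewer than its bounds in the count table span. Its level per kilobase may therefore be overstated.

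**Figure D1:**
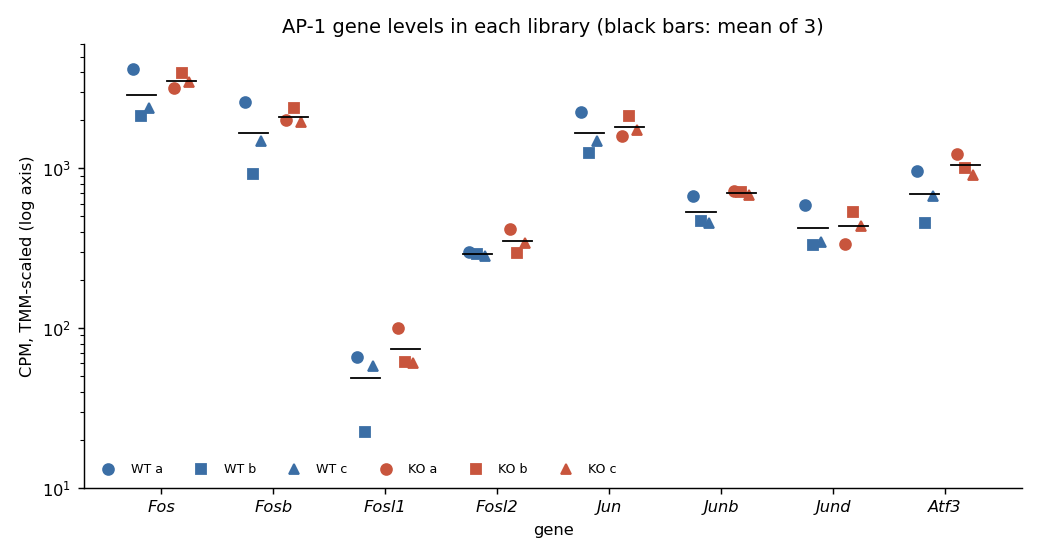
Level of each AP-1 gene in each library, in CPM after TMM scaling on a log axis, with blue for WT, red for KO, a shape for each library and black bars for the mean of 3. *Fos* lies highest (2115 to 4166 CPM) and *Fosl1* lowest (22.2 to 99.8 CPM), and *Junb* is the only gene whose 3 KO points are all above its 3 WT points.

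With all 6 libraries, no AP-1 gene passed the test of K19 *Itga3* KO against WT keratinocytes. The mean was higher in KO for all 8, by a log2 fold change of 0.04 (*Jund*) to 0.60 (*Fosl1*) with a median of 0.32, against a median of 0 over all 21681 genes, of which 50% were positive. In edgeR 0 of 8 had an adjusted p below 0.05 (0.673% of all genes did), and limma-voom and DESeq2 also called 0. At an unadjusted p below 0.05 there were 3 in edgeR (*Junb*, *Atf3* and *Fosl2*, all higher in KO), beside 11.5% of all genes in either direction and 5.58% higher in KO. There were 2 in limma-voom and 3 in DESeq2, beside 11.8% and 9.49% of all genes. With stricter count filters in edgeR the number fell to 1. This held for filterByExpr, beside 2108 of 13811 genes, and for at least 10 counts in every library, beside 2014 of 13054 genes. Every KO library was above every WT library for 1 of the 8, *Junb*, and for 8.03% of all genes. In such bulk libraries, more cells of a type and more RNA per cell cannot be told apart.

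Of the Fos family, *Fos* (chromosome 12, 85473890 to 85477273) encodes the prototype of the proteins that need a Jun partner. It reached 4166, 2115 and 2381 CPM in the WT libraries and 3188, 3948 and 3467 CPM in the KO libraries. The highest and the lowest values both came from WT libraries, and the KO values lay between them. Means ± SD (n = 3 each) were 2887 ± 1120 CPM for WT and 3534 ± 384 CPM for KO, a log2 fold change of 0.29 (SE 0.21, 95% interval −0.17 to 0.76, adjusted p = 0.662 from edgeR).

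*Fosb* (chromosome 7, 19302721 to 19310045), a close relative that is known for a truncated splice form, reached 2584, 918 and 1478 CPM in the WT libraries and 1995, 2390 and 1939 CPM in the KO libraries. Again WT a was highest and WT b lowest, with all KO libraries between them. WT averaged 1660 ± 848 CPM and KO 2108 ± 246 CPM (SD, n = 3 each), a log2 fold change of 0.34 (SE 0.27, 95% interval −0.26 to 0.94, adjusted p = 0.681 from edgeR).

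*Fosl1* (chromosome 19, 5447703 to 5455945) encodes FRA1, which lacks a transactivation domain that FOS has and is itself a target of AP-1. Its level was 66.1, 22.2 and 58.1 CPM in the WT libraries and 99.8, 61.1 and 60.3 CPM in the KO libraries. KO a stood above the other libraries and WT b below them, and the remaining 4 lay within 58.1 to 66.1 CPM. Means ± SD (n = 3 each) were 48.79 ± 23.4 CPM for WT and 73.71 ± 22.6 CPM for KO, a log2 fold change of 0.60 (SE 0.32, 95% interval −0.10 to 1.29, adjusted p = 0.525 from edgeR).

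*Fosl2* (chromosome 5, 32136472 to 32157831) encodes FRA2, which also lacks that domain. It was the steadiest member in WT, at 299, 292 and 281 CPM, beside 419, 294 and 342 CPM in the KO libraries. KO b lay within the WT range, and KO a and KO c lay above it. WT averaged 290.9 ± 9.07 CPM and KO 351.8 ± 63.1 CPM (SD, n = 3 each), a log2 fold change of 0.27 (SE 0.12, 95% interval 0.01 to 0.54, adjusted p = 0.418 from edgeR).

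Of the Jun family, *Jun* (chromosome 4, 95049034 to 95052222) encodes the strongest activator. It reached 2262, 1255 and 1492 CPM in the WT libraries and 1600, 2119 and 1728 CPM in the KO libraries. The order of the 6 libraries was that of *Fos*, with WT a first and WT b last. Means ± SD (n = 3 each) were 1670 ± 527 CPM for WT and 1816 ± 270 CPM for KO, a log2 fold change of 0.12 (SE 0.19, 95% interval −0.30 to 0.54, adjusted p = 0.825 from edgeR).

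*Junb* (chromosome 8, 84976909 to 84978748) encodes a weaker activator that can oppose JUN and that restrains inflammation in mouse epidermis. Its level was 672, 467 and 454 CPM in the WT libraries and 724, 713 and 677 CPM in the KO libraries. The groups did not overlap, although WT a and KO c were separated only by 672 against 677 CPM. WT averaged 530.8 ± 122 CPM and KO 704.9 ± 24.6 CPM (SD, n = 3 each), a log2 fold change of 0.41 (SE 0.14, 95% interval 0.10 to 0.72, adjusted p = 0.259 from edgeR). The exact two-sided permutation test over the 6 libraries gave p = 0.1, the smallest that 3 against 3 allow.

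*Jund* (chromosome 8, 70697739 to 70700616) encodes the Jun protein that most cells make without stimulation. It stood at 585, 331 and 347 CPM in the WT libraries and at 336, 530 and 436 CPM in the KO libraries. High and low libraries occurred in both genotypes, WT a and KO b being the highest and WT b and KO a the lowest. Means ± SD (n = 3 each) of 420.8 ± 142 CPM for WT and 434 ± 97 CPM for KO gave the smallest difference of the 8, a log2 fold change of 0.04 (SE 0.21, 95% interval −0.42 to 0.51, adjusted p = 0.956 from edgeR).

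*Atf3* (chromosome 1, 191170296 to 191183340) encodes a stress-induced protein that pairs with Jun proteins and often represses. Its level was 967, 452 and 666 CPM in the WT libraries and 1225, 1003 and 909 CPM in the KO libraries. WT b and WT c lay below every KO library, and WT a lay between KO c and KO b. Means ± SD (n = 3 each) were 695.1 ± 259 CPM for WT and 1046 ± 162 CPM for KO, a log2 fold change of 0.59 (SE 0.22, 95% interval 0.11 to 1.07, adjusted p = 0.305 from edgeR).

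The outcome turned on WT a, which was the highest of the WT libraries for all 8 members. Leaving it out lowers the WT mean of each member, so the direction of the shift was fixed by the choice of library. Without it, 4 of the 8 had an adjusted p below 0.05 in edgeR, all higher in KO, beside 2.44% of all 21387 genes then tested (260 higher and 261 lower in KO). *Fos* had a log2 fold change of 0.66 (SE 0.12, adjusted p = 0.0175) and *Fosb* of 0.82 (SE 0.17, adjusted p = 0.0329). *Junb* stood at 0.62 (SE 0.10, adjusted p = 0.0115) and *Atf3* at 0.91 (SE 0.17, adjusted p = 0.0187). The other 4 did not pass, with 0.89 for *Fosl1*, 0.41 for *Jun*, 0.36 for *Jund* and 0.30 for *Fosl2* (adjusted p from 0.138 to 0.308), although all 8 were then at an unadjusted p below 0.05, as were 16.1% of all genes. Every KO library was above both remaining WT libraries for 7 of the 8, all but *Jund*, and for 15.5% of all genes.

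The 5 other omissions left 0 of 8 with an adjusted p below 0.05 in edgeR. The smallest adjusted p of any AP-1 gene was then 0.503 without WT b, 0.652 without WT c, 0.694 without KO a, 0.211 without KO b and 0.448 without KO c. In the same order, 1, 0, 0, 3 and 2 of the 8 were at an unadjusted p below 0.05, beside 9.83%, 8.5%, 7.22%, 10.5% and 8.33% of all genes in edgeR. The direction also turned in 2 genes. *Jun* was at −0.05 without WT b, and *Jund* was at −0.10 without WT b, −0.08 without WT c and −0.11 without KO b, whereas the other 6 stayed positive in every fit.

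**Figure D2:**
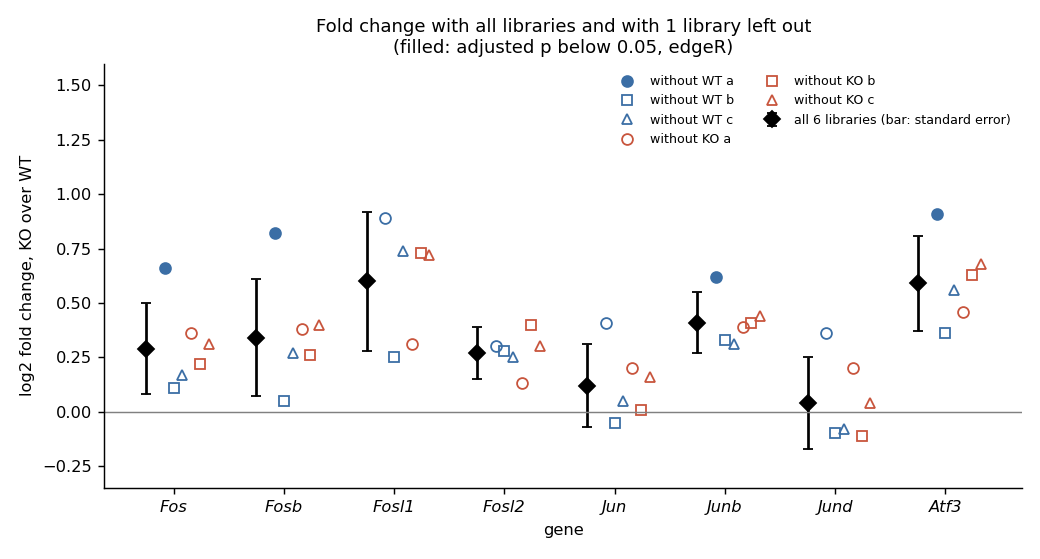
Log2 fold change of KO over WT from edgeR for each AP-1 gene, with all 6 libraries (black, bar for the standard error) and with 1 library left out (coloured symbols, filled where the adjusted p is below 0.05). The 4 filled points, *Fos* 0.66, *Fosb* 0.82, *Junb* 0.62 and *Atf3* 0.91, all belong to the fits without WT a.

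The AP-1 genes varied more from mouse to mouse than most genes. Taken within genotype, the pooled SD of log2 CPM had a median of 0.39 over the 8 members and of 0.15 over the 13054 genes that reached 10 counts in all 6 libraries. Without WT a these medians were 0.24 and 0.14. *Fosl1* (0.68, percentile 97.3), *Fosb* (0.54, percentile 95) and *Atf3* (0.42, percentile 90.2) varied most. *Jund* (0.40), *Fos* (0.39) and *Jun* (0.34) lay between percentiles 85.1 and 89. *Junb* (0.23, percentile 69.8) and *Fosl2* (0.18, percentile 60.3) were nearest to the middle of the range. As a ratio of the highest to the lowest library, the spread ran from 1.49 for *Fosl2* to 4.5 for *Fosl1*, with 1.97 for *Fos* and 2.81 for *Fosb*.

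The spread was wider in WT than in KO for 7 of the 8, *Fosl2* being the exception, and for 61.9% of all genes compared. Its median was 0.49 in WT and 0.21 in KO over the members, against 0.16 and 0.12 over all genes. *Junb* was the extreme case in KO, with an SD of 0.05 beside 0.32 in WT. *Fosl2* showed the reverse, with 0.05 in WT and 0.26 in KO. The lowest library was WT b for 6 of the 8 and WT c for *Fosl2* and *Junb*. WT a was highest for *Fos*, *Fosb*, *Jun* and *Jund*, and KO a was highest for *Fosl1*, *Fosl2*, *Junb* and *Atf3*. Summed keratinocyte markers also had their extremes in WT a (47750 CPM) and WT b (30920 CPM), and their part in the AP-1 spread was not tested. Of the single markers only Krt5 had both extremes in these libraries. Krt14 (7434 CPM in KO a) and Trp63 (1321 CPM in KO b) were highest in KO libraries. Krt15 (9616 CPM in KO a) and Itga6 (627 CPM in KO c) were lowest in KO libraries.

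**Figure D3:**
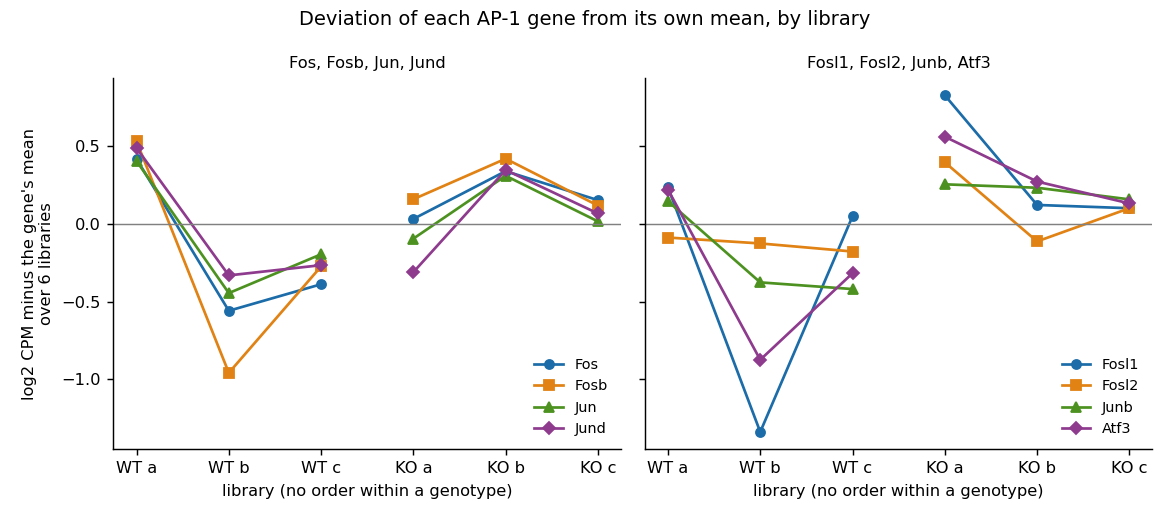
Log2 CPM of each AP-1 gene minus its own mean over the 6 libraries, for *Fos*, *Fosb*, *Jun* and *Jund* (left) and for *Fosl1*, *Fosl2*, *Junb* and *Atf3* (right); lines join the libraries of 1 genotype for reading only. The genes on the left peak in WT a (0.41 to 0.53) and those on the right in KO a (0.26 to 0.83), while WT b is the lowest library for 6 of the 8, down to −1.34 for *Fosl1*.

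Levels of the members went together over the 6 libraries to different degrees. Of the 28 pairs, 26 had a positive correlation of log2 CPM and 12 an r above 0.8, with a median of 0.715 and a range from −0.28 (*Fosl2* with *Jund*) to 0.96 (*Fos* with *Fosb*). Of all pairs of the 13054 genes, 50.1% had a positive correlation and 5.07% an r above 0.8. By exact permutation of the pairings, 9 pairs had an unadjusted p below 0.05, and 5 had an adjusted p below 0.05 over the 28, each at 0.0234. Spearman's rho passed for 0 pairs after adjustment (lowest exact adjusted p = 0.0778). The points share library, depth and scaling, so these are correlations of levels in the same mice.

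*Fos* and *Fosb* had r = 0.96 (rho 0.94), and r = 0.93 without WT b and WT c, the libraries farthest from the median of *Fos*. *Fos* and *Jun*, which encode the classical pair of AP-1 partners, had r = 0.95 (rho 1.0), and 1.0 without the same libraries. *Fosb* and *Jun* had r = 0.94 (rho 0.94), and 0.96 without the 2 farthest libraries. *Jun* and *Jund* had r = 0.94 (rho 0.94), and 0.95 without WT a and WT b. *Fosl1* and *Atf3* had r = 0.93 (rho 0.94), which was 0.69 without WT b and KO a. Of the 12 pairs with an r above 0.8, 5 turned negative without WT b and WT c and so rested on these libraries. They were *Fos* with *Junb* (0.89 to −0.50), *Fos* with *Atf3* (0.82 to −0.58), *Fosb* with *Fosl1* (0.81 to −0.37), *Fosb* with *Junb* (0.84 to −0.27) and *Fosb* with *Atf3* (0.90 to −0.25). With the mean of each genotype subtracted, the median over the 28 pairs was 0.76.

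Among the 13053 other genes that reached this minimum, the genes most like *Fos* were *Ddx51* (r = 0.9972), *Slain2* (0.993), *Jph4* (0.9914), *Smad6* (0.991) and *Pdcd11* (0.9898). Those most like *Jun* were *Rccd1* (0.9997), *Thada* (0.9936), *Pycr1* (0.9897), *Cpsf1* (0.9895) and *Nhlrc1* (0.9845). These are the highest of many correlations over 6 libraries, so high values occur among them by selection, and no p is given.

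The share of the Fos genes in the Fos and Jun pool was steadier than the size of the pool. Summed over the 7 Fos and Jun genes, CPM per kilobase of exon was 3601, 1882 and 2179 in the WT libraries and 2785, 3414 and 2947 in the KO libraries. The 4 Fos genes made up 62.5%, 57.8% and 60.0% of it in the WT libraries and 63.5%, 62.2% and 62.8% in the KO libraries. The WT range and the KO range overlapped, with means of 60.1% ± 2.35 (SD, n = 3) and 62.8% ± 0.65 (SD, n = 3), a difference of 2.73 percentage points (exact two-sided permutation test, p = 0.2). That difference was 1.58 without WT b and 3.92 without WT a. *Fos* alone held 47.8% ± 1.38 (SD, n = 3) of the pool in WT and 49.3% ± 0.683 (SD, n = 3) in KO.

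The share of *Jun* was 19.7%, 20.9% and 21.5% in the WT libraries and 18%, 19.5% and 18.4% in the KO libraries. The groups did not overlap, although WT a and KO b were separated only by 19.7% against 19.5%. The mean was lower by 2.07 percentage points in KO (exact two-sided permutation test, p = 0.1, which is the lower limit). The share of *Jund* was 9.74%, 10.5% and 9.53% in the WT libraries and 7.23%, 9.3% and 8.88% in the KO libraries. These groups did not overlap either, although WT c and KO b were separated only by 9.53% against 9.3%. The mean was lower by 1.47 percentage points in KO (exact two-sided permutation test, p = 0.1). The shares of a library add up to a fixed total, and the p-values of the shares were not adjusted. Shares of single genes were computed with merged exon length only. In CPM neither gene had a lower mean in KO (log2 fold change 0.12 for *Jun* and 0.04 for *Jund*). *Fosb*, *Junb*, *Fosl1* and *Fosl2* overlapped between the genotypes in their shares, of which that of *Fosl1* ran from 0.579% to 1.76% and that of *Fosl2* from 0.859% to 1.6%, and none of the 8 shares compared could reach a p below 0.1. The ratio of *Fos* to *Jun* in CPM was 1.84, 1.69 and 1.6 in the WT libraries and 1.99, 1.86 and 2.01 in the KO libraries. These values did not overlap between the genotypes, although WT a and KO b were separated only by 1.84 against 1.86, and the difference was not tested. Over the 6 libraries the ratio varied by 1.26 times, although either gene alone varied by up to 1.97 times. The ratio of *Fosl1* to *Fosl2*, in contrast, varied by 3.13 times, from 0.076 in WT b to 0.238 in KO a.

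**Figure D4:**
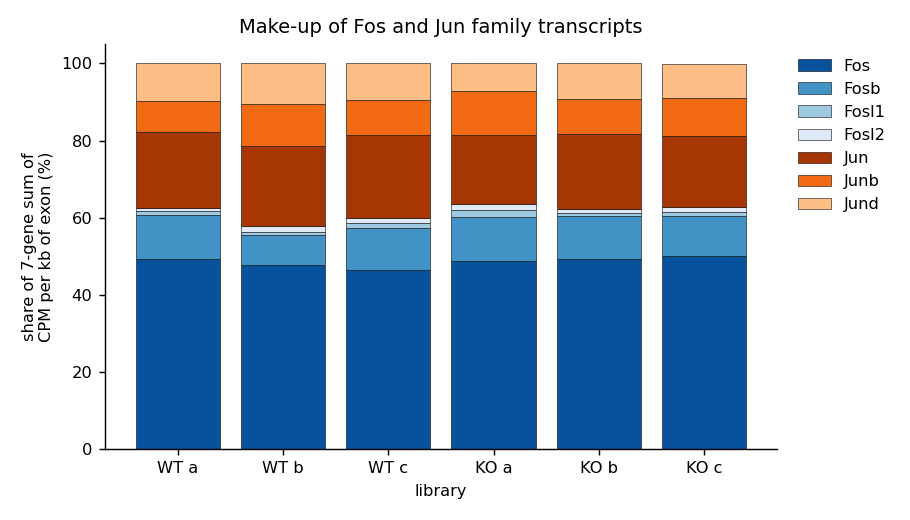
Share of each Fos (blue) and Jun (orange) family gene in the 7-gene sum of CPM per kilobase of exon, in percent, for each library. The Fos genes hold 57.8% to 63.5% in every library, *Fos* being the largest single share, while *Fosl1* and *Fosl2* hold at most 1.76% each.

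Genes around AP-1 were described by 4 lists, each by its counts and its median. These lists, like the AP-1 genes, were chosen with earlier results of these data known. Their counts beside those of all genes are therefore description only. Other dimer partners (13 of 14 tested) had 1 gene with an adjusted p below 0.05 in edgeR, beside 0.673% of all genes. Their median log2 fold change was 0.19. The call was lost without WT b, WT c, KO a or KO c, which each left 0 in edgeR. *Atf4*, *Atf7* and *Maf*, the most abundant of the list by CPM, had log2 fold changes of 0.38, −0.05 and −0.06 and did not pass.

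The 25 upstream genes, kinases of the TPA response and factors that act with serum response factor, had a median log2 fold change of 0.07. In edgeR, limma-voom and DESeq2 alike 0 of 25 had an adjusted p below 0.05. At an unadjusted p below 0.05 in edgeR there were 5, 4 of them positive and 1 negative, beside 11.5% of all genes. Every KO library was above every WT library for 8 of the 25, and for 8.03% of all genes. For 1 of the 25 every KO library was below every WT library. Among the most abundant by CPM were the kinase gene *Mapk3* (log2 fold change 0.09) and the protein kinase C gene *Prkcd* (0.01), and neither passed.

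Of 32 genes known as AP-1 targets in skin, 27 had a positive log2 fold change, beside 50% of all genes. Their median log2 fold change was 0.44, and 2 had an adjusted p below 0.05 in edgeR, beside 0.673% of all genes. *Gja1*, which encodes connexin 43, stood at 350, 285 and 373 CPM in the WT libraries and at 668, 448 and 615 CPM in the KO libraries, and rose by 0.78 (SE 0.15, adjusted p = 0.0447). The cytokine gene *Tnf* rose by 1.48 (SE 0.29, adjusted p = 0.0472) from 0.964, 1.42 and 1.37 CPM in WT to 4.72, 2.72 and 3.05 CPM in the KO libraries, on 21 to 111 counts per library. In both genes every KO library was above every WT library. Both lost the call without WT b (adjusted p = 0.0998 for *Gja1* and 0.0712 for *Tnf*), without WT c (0.368 for both), without KO a (0.352 and 0.333) and without KO c (0.184 and 0.13). The stress keratin gene *Krt6a* (0.58), the adhesion receptor gene *Cd44* (0.41) and the metallothionein gene *Mt2* (0.29) were the most abundant by CPM and did not pass.

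Of 24 other early response genes, 22 had a positive log2 fold change, beside 50% of all genes. Their median log2 fold change was 0.31, close to the 0.32 of the AP-1 genes. The zinc finger gene *Egr3* rose by 1.03 (SE 0.17, adjusted p = 0.0251 from edgeR), from 28.8, 22.4 and 29.6 CPM in the WT libraries to 66.1, 40.2 and 58.9 CPM in the KO libraries. *Socs3*, which encodes an inhibitor of cytokine signaling, rose by 0.55 (SE 0.11, adjusted p = 0.0453), from 254, 208 and 245 CPM to 323, 332 and 379 CPM. For both, each KO library was above each WT library. Their adjusted p was 0.0617 and 0.0797 without WT b, 0.363 and 0.368 without WT c, 0.29 and 0.25 without KO a, and 0.12 and 0.211 without KO c, and that of *Socs3* was 0.0639 without KO b. Without WT a, 8 of the 24 passed, beside 2.44% of all 21387 genes then tested.

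The most abundant early response gene, *Egr1*, stood at 2258, 1235 and 1367 CPM in the WT libraries and at 1692, 2311 and 1905 CPM in the KO libraries (log2 fold change 0.28, adjusted p = 0.649 from edgeR). As with *Fos*, WT a was high and WT b lowest. *Zfp36* (0.58) and *Klf4* (0.06) followed by CPM and did not pass.

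**Figure D5:**
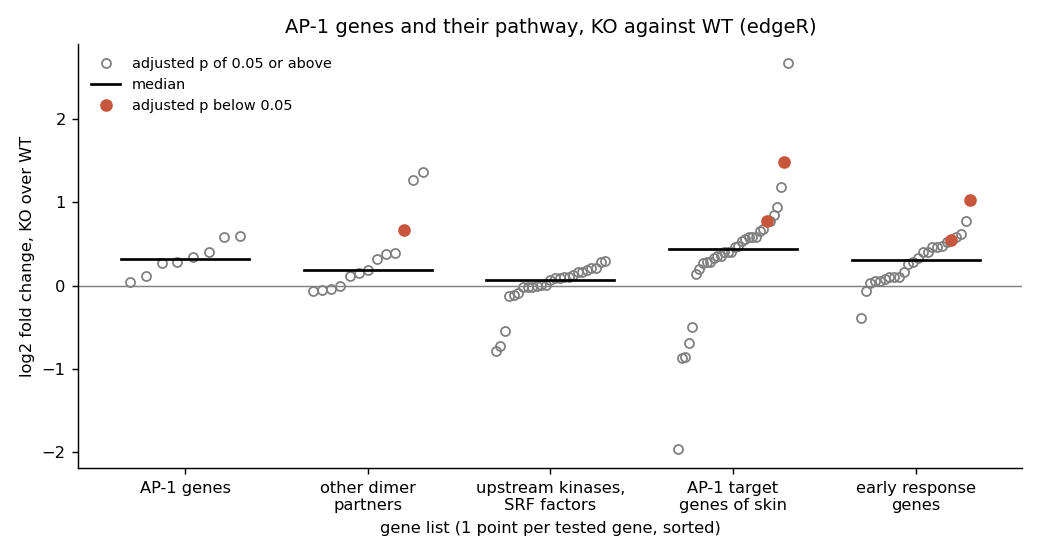
Log2 fold change of KO over WT from edgeR for every tested gene of the AP-1 family and of 4 lists around it, sorted within each list, with a black line for the median and red for an adjusted p below 0.05. The medians are 0.32 for AP-1 genes, 0.19 for dimer partners, 0.07 for upstream genes, 0.44 for skin targets and 0.31 for early response genes, and the red points among skin targets and early response genes are *Gja1*, *Tnf*, *Egr3* and *Socs3*.

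The deposited counts are sums per gene, so isoform use was not analysed here. The reference annotation (GENCODE vM21, GRCm38) lists 7 transcripts for *Fosb*, 4 for *Fos*, 3 each for *Atf3*, *Fosl1* and *Fosl2*, 2 for *Junb* and 1 each for *Jun* and *Jund*, whose models are a single exon. *Jun* overlaps the antisense gene *Junos*, which had 102 to 182 counts per library against 27389 to 49300 for *Jun*. *Jund* overlaps *Gm11175* on the opposite strand, with 149 to 246 counts against 7228 to 12742. *Fosl1* overlaps *Ccdc85b* on the opposite strand in this annotation (117 to 173 counts against 484 to 2347), although their bounds in the count table do not meet. The counting took strand into account.

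The 3′ untranslated regions were searched for ATTTA, the core of the AU-rich elements that mark short-lived transcripts. All 8 members held at least 1 copy, as did 63% of the 16189 genes with such a region, and 4 of 8 held 3 or more, against 32%. *Fosl2* held 8 copies, *Fos* and *Jun* 4 each, *Atf3* 3, *Junb* 2 and *Fosb*, *Fosl1* and *Jund* 1 each. Per kilobase of the region, *Fos* (4.91) and *Junb* (4.12) came first and *Fosb* (0.466) last, beside a median of 1.1 over all genes.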

How the data were processed

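Polyadenylated RNA of GFP-positive keratinocytes was sequenced by the authors as strand-specific libraries with single reads of 65 bases, demultiplexed with bcl2fastq and aligned to mouse genome build 38 with TopHat 2.1.0 and Bowtie 1.1, using Ensembl gene models. Uniquely mapped reads were counted per gene with attention to strand, by a script modelled on HTSeq. The deposited values are these whole-number counts, unnormalized, for 6 libraries, and all columns were mapped to a genotype. Reads with several matches were dropped, so genes with near-identical copies are undercounted, and intervals cover counting error and spread between mice only.

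KO was compared with WT over the 21681 genes with a count in any library by edgeR 4.0.16 (TMM, quasi-likelihood test, two-sided, Benjamini-Hochberg, threshold 0.05) in R 4.3.3. Standard errors and 95% intervals are from that fit. Limma-voom 3.58.1, the tool of the study, DESeq2 1.42.0, other scalings, count filters and omission of each library were the alternatives. Further ones, exons restricted to the gene bounds of the count table and omission of libraries for the correlations, were chosen after seeing the data. Of the table's genes, 98.9% matched GENCODE vM21 and 70.2% of these had the same bounds, so coordinates are those of the table and lengths those of GENCODE. Of the members, *Fos* and *Jun* had the same bounds. At this depth 3 counts equal 0.128 to 0.145 CPM. The code was tested on simulated counts.

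The AP-1 genes and the lists were chosen with earlier results of these data known. Named were the members, *Itga3*, marker genes, listed genes with an adjusted p below 0.05, the 3 most abundant of each list, and the 5 genes most like *Fos* and *Jun*. Some results that this rule covers are not reported here.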

Additional observations from a re-analysis of the deposited data

How the results depend on the processing

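Under the 6 alternatives in tool, scaling and count filter, no AP-1 gene had an adjusted p below 0.05 (the smallest was 0.125, *Junb* in DESeq2) and all 8 log2 fold changes stayed positive. With each library left out in turn, 0 to 4 of the 8 passed, the 4 without WT a, and the log2 fold change ranged from −0.05 to 0.41 for *Jun* and from −0.11 to 0.36 for *Jund*. Skin targets with an adjusted p below 0.05 numbered 2 in edgeR, 0 in limma-voom, 6 in DESeq2, 1 with library size only, 0 with filterByExpr, 0 where each library had to reach 10 counts and 0 to 3 with a library left out. Early response genes numbered 2 in edgeR, 0 in limma-voom, 6 in DESeq2, 0 with filterByExpr, 0 with that minimum and 0 to 8 with a library left out. Dimer partners numbered 1 in edgeR, 0 in limma-voom, with filterByExpr and with that minimum, and 0 to 1 with a library left out. Over all genes the number was 146 in edgeR, 24 in limma-voom, 546 in DESeq2, 15 with filterByExpr (13811 genes), 12 with that minimum (13054 genes) and 5 (without WT c) to 521 (without WT a) with a library left out. Some of those fits also held fewer genes or libraries, and the cause of the differences was not tested. The difference in the Fos share (2.73 percentage points) ranged from 1.58 (without WT b) to 3.92 (without WT a), and from 2.53 to 2.88 under other lengths. The median spread of the members (0.39) ranged from 0.24 (without WT a) to 0.45 (without KO c). Their median correlation (0.72) was 0.69 with library size only, 0.76 with genotype means subtracted and 0.58 (without WT b) to 0.89 (without KO a) with a library left out. In the order of levels, 2 of 7 neighbours were set apart under each length used, but not the same ones. With exon lengths, restricted or not, they were *Fos* from *Jun* and *Jund* from *Fosl2*. Coding length set apart *Atf3* from *Junb* and *Fosl2* from *Fosl1*. Without division by length they were *Jun* from *Atf3* and *Fosl2* from *Fosl1*. No paired analysis was possible because the count columns carry no sample number of the labels.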
